A study of Nasonia vitripennis with 70 samples.

Results

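Heads and abdomens of haploid males of the parasitoid wasp Nasonia vitripennis were compared in 9 head libraries and 9 abdomen libraries, out of 70 libraries in the series. The 18 libraries were taken by their labels alone: strain WGDL, ploidy 1N, male, tissue head or abdomen, at generation F5 (5 heads and 5 abdomens) or F15 (4 heads and 4 abdomens). WGDL is a line whose genome was once doubled with colchicine, and its females are diploid or triploid and its males haploid or diploid. The haploid males compared here share that origin, and no male of another line was used. All animals were sampled 1 day after emergence, and poly-A RNA was sequenced. For comparison, 18 diploid male libraries (F5 and F15) and 16 diploid female libraries (F2 and F14) of the same line were used. The labels do not tie heads to abdomens or give the number of animals per library, so p-values measure the spread between libraries, which may be technical.

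In Hymenoptera, unfertilised eggs develop into haploid males. The insect head holds the brain, the compound eyes and the antennae, with their photoreceptors and odorant-sensing neurons. The abdomen holds most of the gut and fat body, the oenocytes, and in males the testes and accessory glands, whose secretions include many serine proteases and their inactive homologs.

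Each of the 18 haploid male libraries correlated better with the other libraries of its labelled tissue than with the other tissue, and 69 of all 70 did. The exception was the library labelled F5 diploid male abdomen C46, which correlated at r = 0.984 with heads and 0.802 with abdomens. It belongs to no haploid group, but it entered the shared estimate of spread from 36 male libraries. Several counts are given with and without it. The SE and p-values of single genes for head against abdomen are from the fit that holds it, unless stated. Total counts per library ran from 16011453 to 21450541 in F5 heads, 14266000 to 17153228 in F15 heads, 17581475 to 25061605 in F5 abdomens and 13416678 to 20979218 in F15 abdomens. The first principal component of the haploid libraries held 68.6% of the variance and separated the tissues. The second held 11.1% and set most F15 libraries of both tissues apart from F5; the F15 head C84 and the F15 abdomen C89 lay nearest to F5. Generation cannot be told apart from the time of collection.

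**Figure D1:**
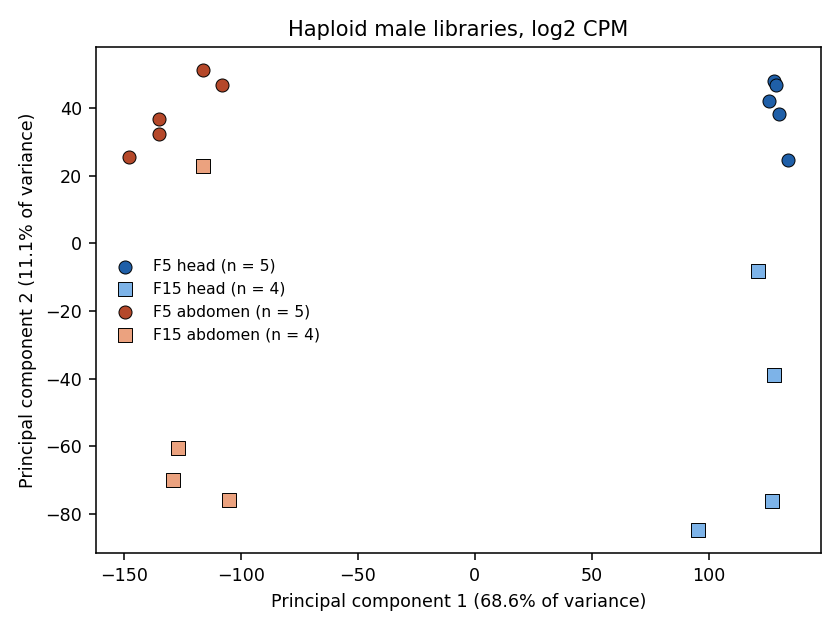
Each point is 1 haploid male library on the first and second principal components of log2 CPM (arbitrary units; blue, heads; red, abdomens; circles, F5; squares, F15). Heads and abdomens lie on opposite sides of the first component, which holds 68.6% of the variance, and the second, with 11.1%, spreads the F15 libraries.

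Most genes differed between the tissues. Of 12387 genes tested with edgeR, 3916 (31.6%) were higher in heads and 4129 (33.3%) were higher in abdomens at an adjusted p below 0.05, so that 64.9% of genes were called and a call by itself was the usual outcome. A test against a 4-fold change kept 740 genes (5.97%) for heads and 1107 (8.94%) for abdomens. Without C46 these counts were 845 (6.82%) and 1181 (9.54%). Libraries of the 2 tissues did not overlap for 1584 genes higher in heads (12.8%) and 1616 higher in abdomens (13%). The median log2 head minus abdomen difference over all genes was -0.04. In bulk tissue, fewer cells of a type and less RNA per cell cannot be told apart, and this holds for every level below.

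More genes were detected in abdomens at 1 TPM, and the 10 leading genes took a smaller share there. Heads had 10081 ± 314 genes at 1 TPM or more (SD, n = 9) and abdomens 10674 ± 619 (SD, n = 9; exact permutation test, two-sided, p = 0.00518, adjusted over 4 measures 0.0104). The 10 most abundant genes took 21.1 ± 7.63% of TPM in heads and 11.2 ± 1.5% in abdomens (SD, n = 9 each; exact permutation p = 0.000864, adjusted 0.00346). At 10 TPM or more the number of genes was 7077 ± 446 in heads and 6826 ± 267 in abdomens, and this difference did not pass (exact permutation p = 0.165). The 100 most abundant genes took 40 ± 8.36% in heads and 34.1 ± 2.59% in abdomens, which did not pass either (exact permutation p = 0.0605, adjusted 0.0807). Much of the share of the leading genes in heads was 1 transcript, CPR48, a gene named for the RR family of chitin-binding cuticular proteins. It averaged 116559 ± 75386 TPM in heads, from 40677 to 251187, against 4.55 ± 7.14 TPM in abdomens.

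Among genes with a name other than a LOC number, CPR48 and CYP9AG7 had the largest head differences. CPR48 ran from 5339 to 49010 CPM (counts scaled to library size) in the 9 heads, with a median of 18090, and from 0 to 3.9 CPM in the 9 abdomens, with a median of 0.198. Every head was thus far above every abdomen, with a log2 difference of 16.02 ± 2.62 (SE; adjusted p = 6.22e-06). CYP9AG7, a cytochrome P450, ranged over 185 to 9296 CPM in heads (median 1902) and was at most 2.04 CPM in abdomens (log2 13.06 ± 1.89, adjusted p = 7.35e-07). The heads differed widely among themselves for both genes, although no abdomen came near the lowest head. CYP9AG7 was at 1322 to 9296 CPM in F5 heads and 185 to 1902 CPM in F15 heads.

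The eye genes showed the tissue labels plainly. Lop1, a long-wavelength opsin, was at 936 to 4373 CPM in heads (median 3764) and 0 to 2.17 CPM in abdomens (median 0.269). HisCl1, a histamine-gated chloride channel that in Drosophila serves transmission from photoreceptors, was at 13.7 to 52 CPM in heads (median 36.3) and at most 0.592 CPM in abdomens. White, in Drosophila a transporter of eye pigment precursors, was at 1.02 to 8.18 CPM in heads and at most 0.48 CPM in abdomens. The groups did not overlap for these 3 genes, and the log2 differences were 12.24 ± 1.77, 7.42 ± 1.07 and 5.20 ± 0.86 (SE), with adjusted p of 7.51e-07, 6.5e-07 and 7.58e-06.

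**Figure D2:**
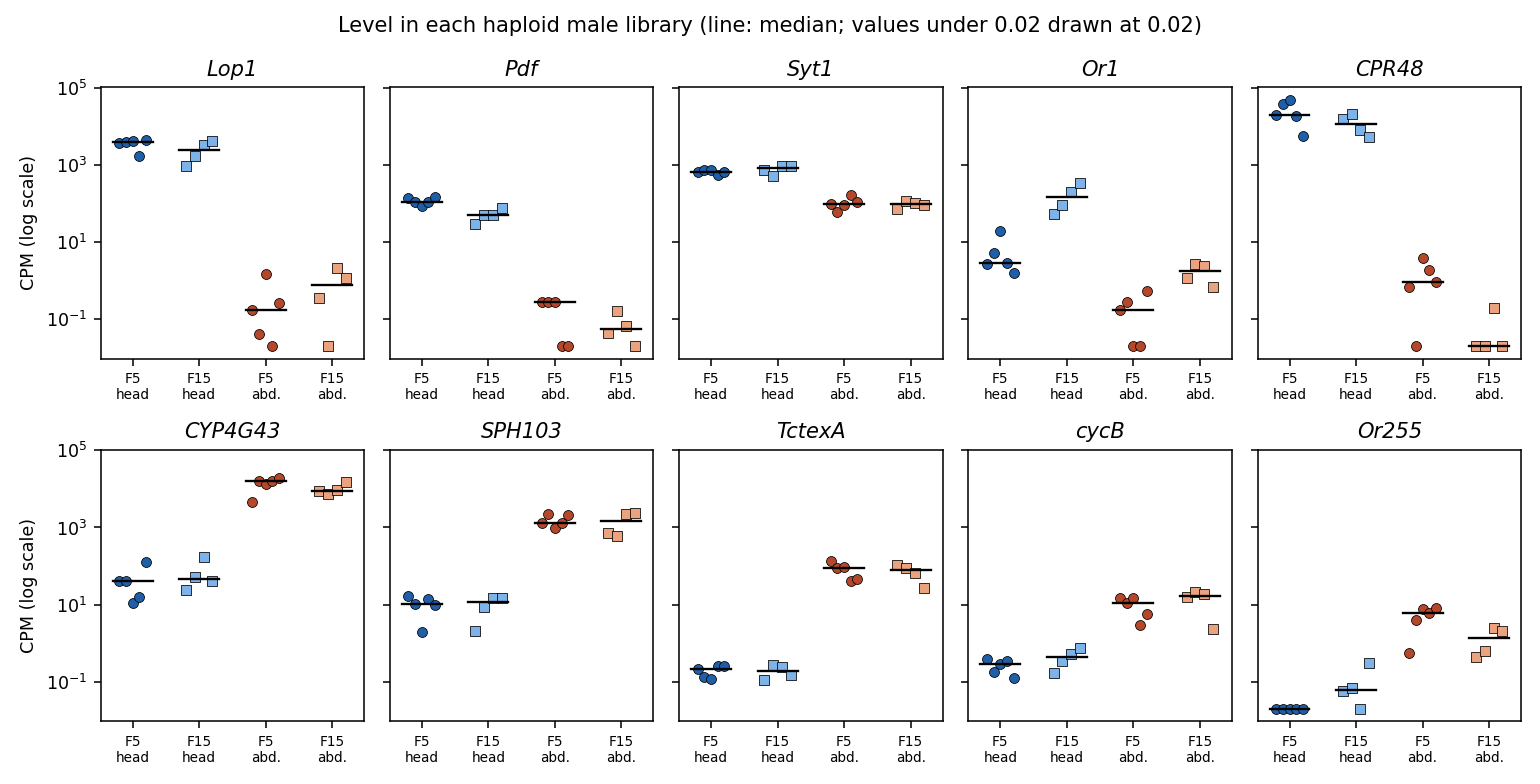
Level of 10 genes in each haploid male library, in CPM on a log axis, by generation and tissue (abd., abdomen; points, libraries; lines, medians; values under 0.02 drawn at 0.02). Lop1 and Pdf are near 0 in abdomens, TctexA and Or255 near 0 in heads, and Or1 is lower in F5 heads than in F15 heads.

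Neuronal genes were higher in heads as a group. Of 10 tested genes for ion channels and synaptic proteins, 10 were higher in heads, where 31.6% of all genes were, with a median log2 difference of 3.23 against -0.04 over all genes. Syt1, the synaptic vesicle calcium sensor synaptotagmin, was at 500 to 958 CPM in heads (median 730) and 60.6 to 170 CPM in abdomens (median 97.9). Nsf, which recycles the vesicle fusion machinery, was at 484 to 1930 CPM in heads and 91.6 to 168 CPM in abdomens. Both were measured in every abdomen, below all heads, with log2 differences of 2.83 ± 0.39 (adjusted p = 2.96e-07) and 3.14 ± 0.43 (adjusted p = 3.32e-07). Para, the voltage-gated sodium channel, and Gnao, a G protein alpha subunit, were 3.38 ± 0.54 and 3.82 ± 0.56 higher on the log2 scale (adjusted p = 2.97e-06 and 8.47e-07). Dop2, a dopamine receptor, was at 15.5 to 28.3 CPM in heads and at most 1.91 CPM in abdomens.

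Nicotinic acetylcholine receptor subunits, which form the main excitatory receptors of the insect brain, followed with 9 of 12 higher in heads (75% against 31.6% of all genes) and a median log2 of 2.92. For nAChRa8 the heads ran from 74.9 to 186 CPM (median 134) and the abdomens from 2.65 to 19.3 CPM (median 9.59; log2 3.59 ± 0.52, adjusted p = 6.66e-07). nAChRa11 and nAChRa2 differed by 3.63 ± 0.57 and 3.89 ± 0.71 (adjusted p = 2.27e-06 and 2e-05), with no overlap between the tissues. nAChRa9 alone was called in the other direction among the 12. It was at 0 in 7 of the 9 heads and at most 0.417 CPM, and it ran from 0 to 5.36 CPM in abdomens (median 0.247; log2 -5.11 ± 1.23, adjusted p = 0.000728). The tissues overlapped for this subunit, and its level was highest in the F15 abdomens C88 and C89.

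Of 10 peptide and steroid hormone genes, 4 were higher in heads (40% against 31.6% of all genes) and 5 in abdomens (50% against 33.3%). Pdf, the pigment-dispersing factor of insect clock neurons, was at 29.2 to 149 CPM in heads (median 86.6) and at most 0.285 CPM in abdomens (log2 9.42 ± 1.31, adjusted p = 4.11e-07). The adipokinetic hormone/corazonin-related peptide ACP and its receptor Acpr were both higher in heads, by 2.77 ± 0.46 and 4.54 ± 0.53 on the log2 scale (adjusted p = 4.91e-06 and 2.57e-08). Acpr did not overlap, at 41.3 to 172 CPM in heads and 1.68 to 10.9 CPM in abdomens, while ACP did, since its lowest head was at 6.1 CPM and its highest abdomen at 8.11. Akhr, the adipokinetic hormone receptor through which fat body is mobilised, lay the other way, at 17.4 to 46.8 CPM in heads and 75.9 to 455 CPM in abdomens (log2 -2.78 ± 0.40, adjusted p = 6.54e-07). No abdomen fell as low as the highest head. Pdf was at 86.6 to 149 CPM in F5 heads and 29.2 to 74.4 CPM in F15 heads. Acpr was at 126 to 172 and 41.3 to 94.6 CPM in the same heads.

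Odorant receptors were mixed. Of 214 in the table, 143 passed the filter on low counts, 46 of them (32.2%) higher in heads and 17 (11.9%) higher in abdomens. The share higher in heads was near the 31.6% over all genes, and the share higher in abdomens was below the 33.3% over all genes. The median log2 difference was -0.20 at F5 and 2.07 at F15, but 1 of the 143 passed the test of the difference between generations. With the haploid libraries alone in the fit 29 of 87 tested were higher in heads and 15 in abdomens, where 35.4% and 33.5% of all genes were. Or1, the receptor shared by odorant-sensing neurons as co-receptor, was at 2.64, 5.22, 19.5, 2.87 and 1.55 CPM in the 5 F5 heads and at 53.8, 91.4, 196 and 348 CPM in the 4 F15 heads. Its abdomens ran from 0 to 2.72 CPM. The lowest F15 head was above the highest F5 head, and the lowest F5 head lay within the range of the abdomens. The log2 tissue difference of Or1 was 5.79 ± 0.94 (adjusted p = 4.05e-06), and its difference between generations, 1.69 ± 1.74, did not pass (adjusted p = 0.815). Or243 had the same kind of heads, from 0 to 2.58 CPM at F5 and 5.59 to 30.8 CPM at F15.

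Some chemoreceptor genes were higher in abdomens. Or255 was at 0 in the 5 F5 heads, at most 0.309 CPM in F15 heads, and at 0.443 to 8.02 CPM in abdomens (median 2.44; log2 -6.60 ± 0.90, adjusted p = 5.91e-07). The tissues did not overlap. Of 46 gustatory receptor genes, 16 were tested, and 4 were higher in each tissue (25%, against 31.6% of all genes for heads and 33.3% for abdomens). Gr47 was at most 0.43 CPM in heads and at 0.541 to 3.87 CPM in abdomens (log2 -3.79 ± 0.66, adjusted p = 1.15e-05). In the order of genes on the reference, Gr47, Gr46 and Gr45 stood side by side and all passed the 4-fold test for abdomens, together with a LOC neighbour. Receptors with close copies may share reads, and these levels are low.

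Oxidative phosphorylation genes, which encode subunits of the respiratory complexes and the ATP synthase, were higher in heads by a small and even margin. Of 65 members, 55 were higher in heads (84.6% against 31.6% of all genes), 3 were higher in abdomens and 7 were not called, with a median log2 difference of 0.70. The summed level ran from 66502 to 104039 TPM in heads (median 74707) and from 33659 to 65625 TPM in abdomens (median 38931). Every head was above every abdomen in summed TPM, but not in summed CPM, which ran from 15468 to 37697 in heads and 10318 to 25115 in abdomens. The count rests on small differences: without the F15 head C82 it was 30, with F5 alone 32 (29.3% of all genes) and with F15 alone 10 (20.6% of all genes), while with the haploid libraries alone in the fit it was 59.

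The 3 members that were higher in abdomens stood far from the rest. Cox6c, a subunit of cytochrome c oxidase, had no count in any of the 9 heads and 0.866 to 16.2 CPM in abdomens (median 11.3), at least 521-fold higher against a floor of 3 counts over the 9 heads (adjusted p = 2.37e-06). Cox7a1, another subunit, was at 0.0446 to 0.751 CPM in heads and 8.19 to 62 CPM in abdomens (log2 -6.69 ± 0.83, adjusted p = 6.81e-08). Cyc1l, named as a cytochrome c1-like gene and named here after its values were seen, was at most 0.58 CPM in heads and at 1.03 to 19.5 CPM in abdomens (log2 -5.26 ± 0.70, adjusted p = 2.2e-07). None of the 3 overlapped between tissues. As background, testis-expressed copies of respiratory chain genes are known in Drosophila.

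**Figure D3:**
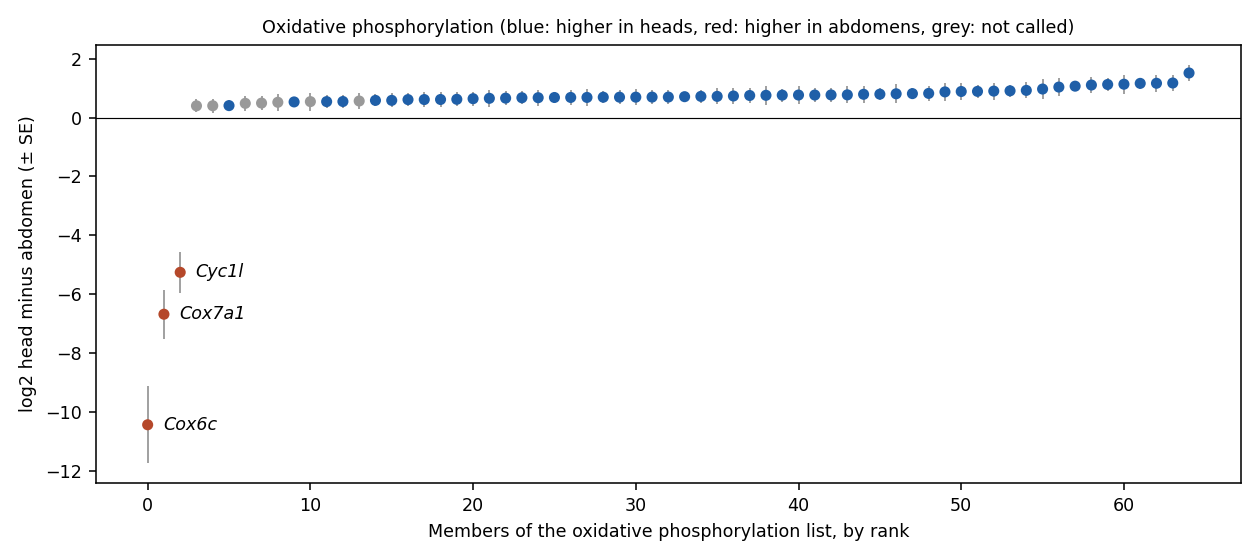
Log2 head minus abdomen difference (± SE) of the 65 oxidative phosphorylation genes, ordered by size along the horizontal axis (blue, higher in heads; red, higher in abdomens; grey, not called). Cox6c, Cox7a1 and Cyc1l lie between -10.44 and -5.26, and the other 62 lie between 0 and 1.52.

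TctexA, a Tctex-type dynein light chain, was in a similar position within its list. It was at 0.115 to 0.278 CPM in heads (median 0.22) and 27.3 to 137 CPM in abdomens (median 90.9; log2 -8.57 ± 0.79, adjusted p = 8.26e-10). The 10 other dynein and dynactin genes differed by 1.40 or less on the log2 scale, and 5 of the 11 members were higher in heads (45.5% against 31.6% of all genes) and 3 in abdomens (27.3%, near the 33.3% of all genes). The other members higher in abdomens were Arp1, the actin-like core of dynactin, at -1.40 ± 0.23 (adjusted p = 4.26e-06), and DLC-A, another light chain, at -1.15 ± 0.25 (adjusted p = 0.000212).

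Of 14 cell cycle genes, 7 were higher in heads (50% against 31.6% of all genes) and 5 in abdomens (35.7%, near the 33.3% of all genes). The largest difference was that of cycB, cyclin B, at 0.129 to 0.773 CPM in heads (median 0.347) and 2.38 to 21.4 CPM in abdomens (median 15), a log2 difference of -5.08 ± 0.63 (adjusted p = 7.82e-08). Its activator of destruction in mitosis, fzy, was at 0.979 to 2.83 CPM in heads and 6.33 to 15.8 CPM in abdomens (log2 -2.54 ± 0.35, adjusted p = 3.23e-07). Neither gene overlapped between tissues. Plk4, Cdk1 and cycD were lower in heads by 1.43, 1.02 and 1.53 on the log2 scale with overlap (adjusted p = 3.21e-05, 0.00469 and 0.0227), the call of cycD being lost without the F15 abdomen C88, and the centromeric histone Cenp-a was 1.85 ± 0.33 higher in heads. Of 8 tested germ line and meiosis genes, 2 were higher in heads (25% against 31.6% of all genes) and 3 in abdomens (37.5% against 33.3%). Of these, oskar was 1.28 ± 0.25 higher in heads (adjusted p = 5.12e-05). The gene nanos was too low to be tested, at 0.155 CPM or less in the heads and 0.0533 CPM or less in the abdomens. Of 11 embryo patterning genes, 5 were higher in heads (45.5% against 31.6%) and 3 in abdomens (27.3% against 33.3%), with a median log2 of 0.32. The largest difference was that of Cad (caudal), which specifies posterior identity, at 1.97 to 9.56 CPM in abdomens and at most 1.04 CPM in heads (log2 -4.70 ± 0.71, adjusted p = 1.49e-06).

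Serine proteases made up a large abdomen group. Of 43 in the table, 34 were tested, 21 were higher in abdomens (61.8% against 33.3% of all genes) and 2 in heads, with a median log2 of -1.72. SP102 was at 0 to 3.61 CPM in heads (median 0) and 8.05 to 246 CPM in abdomens (median 32.5; log2 -8.43 ± 1.08, adjusted p = 1.12e-07). SP132, SP50 and SP128 differed by -7.24 ± 0.81, -6.81 ± 0.93 and -6.81 ± 1.01, and no head reached an abdomen. The level of SP102, SP132 and SP50 in heads was highest in the F15 head C82, which also held the highest head level of Cad. Without C82 the differences of these 4 genes were larger, at -9.94, -7.83, -7.55 and -5.32. Of 5 tested serine protease homologs, 2 were higher in abdomens (40%, near the 33.3% of all genes) and 3 were not called. Among them SPH103, without protease activity by its name, was at 1.93 to 16.7 CPM in heads (median 10.5) and 617 to 2301 CPM in abdomens (median 1326; log2 -7.18 ± 0.82, adjusted p = 1.73e-08). SP9 and SP7 belonged to 1 of 17 runs of at least 4 genes in a row that passed the 4-fold test for abdomens. The longest run held 9 genes, and heads had 1 run of 4. More genes passed for abdomens (8.94%) than for heads (5.97%), and the number of runs expected from these shares was not calculated.

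Enzymes of lipid and foreign compound metabolism were mostly higher in abdomens. Of 42 cytochrome P450 genes, 27 were higher in abdomens (64.3% against 33.3% of all genes) and 7 in heads, with a median log2 of -1.35. CYP4G43 was the most abundant named abdomen transcript of that family at 8931 TPM on average. Genes of the CYP4G subfamily make cuticular hydrocarbons in the oenocytes of Drosophila. CYP4G43 ran from 11.1 to 173 CPM in heads (median 40.3) and 4593 to 19547 CPM in abdomens (median 13702; log2 -7.67 ± 0.91, adjusted p = 3.4e-08). Its relative CYP4G44 ran from 2.99 to 18.2 CPM in heads and 322 to 1149 CPM in abdomens (log2 -6.66 ± 0.79, adjusted p = 3.12e-08). CYP6AS33 held 6 counts over all 9 heads and was at 4.11 to 19.2 CPM in abdomens. Every abdomen exceeded every head for these 3 genes.

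Glutathione S-transferases and carboxylesterases, which conjugate and hydrolyse foreign compounds, were distributed likewise. Of 16 glutathione S-transferases, 12 were higher in abdomens (75% against 33.3% of all genes) and 3 in heads, with a median log2 of -1.51. GstS2 was at 5.22 to 18.8 CPM in heads and 118 to 321 CPM in abdomens (log2 -4.24 ± 0.38, adjusted p = 6.78e-10), while GstD3 was higher in heads (log2 2.91 ± 0.45, adjusted p = 1.77e-06). Of 13 carboxylesterases, 10 were higher in abdomens (76.9% against the same 33.3%) and 3 in heads, with a median of -2.32. CCE-A4 was at 0.155 to 1.13 CPM in heads and 15.2 to 88.2 CPM in abdomens (log2 -6.71 ± 0.72, adjusted p = 7.81e-09). Neither GstS2 nor CCE-A4 overlapped between the tissues.

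**Figure D4:**
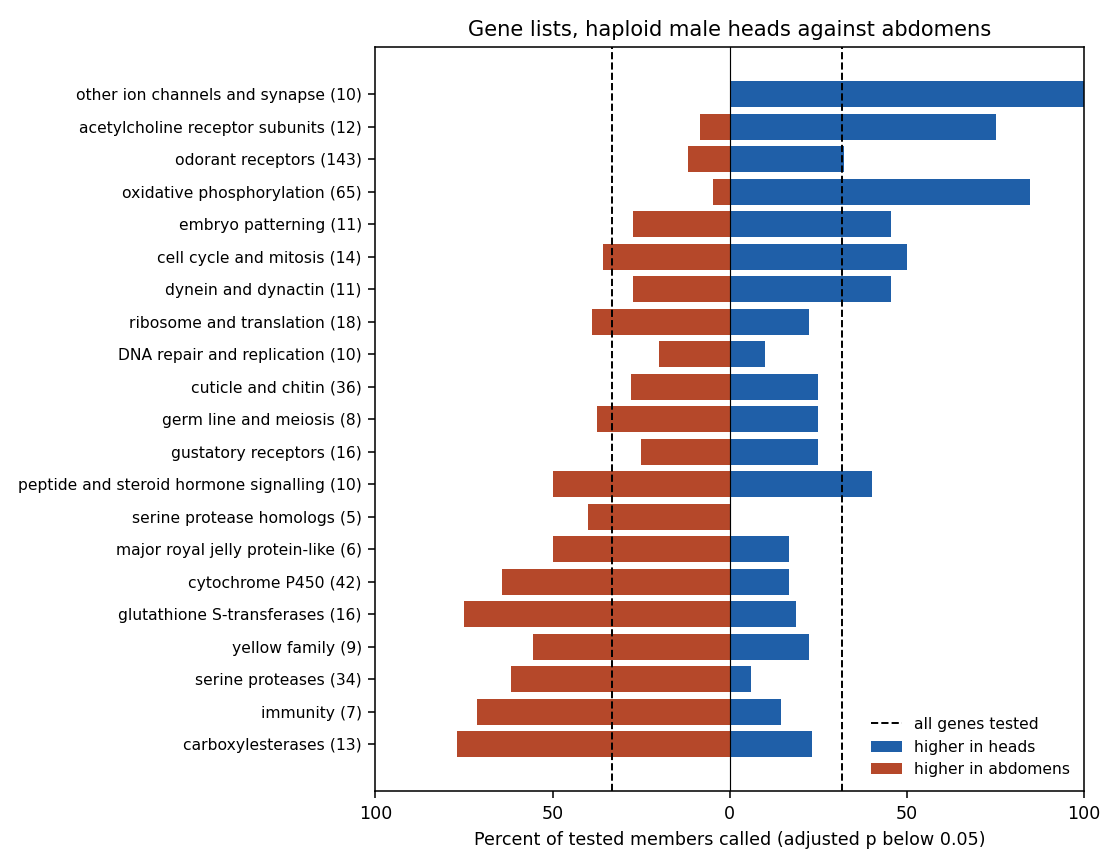
Percent of the tested members of each gene list called higher in heads (blue, to the right) or in abdomens (red, to the left), for lists with at least 5 tested members, whose number is in parentheses, ordered by median log2 difference. The dashed lines are the 31.6% and 33.3% over all genes tested; ion channel and oxidative phosphorylation genes exceed the line for heads, and detoxification genes and serine proteases exceed that for abdomens.

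Of 4 hexamerin and lipid storage genes, 3 were higher in abdomens (75% against 33.3% of all genes). Lsd2, a lipid droplet protein, was at 129 to 738 CPM in heads and 214 to 1435 CPM in abdomens (log2 -1.33 ± 0.26, adjusted p = 3.9e-05). The storage proteins Hex70b and Hex109 differed by -1.76 ± 0.67 and -0.99 ± 0.33 (adjusted p = 0.0224 and 0.00896) with overlap, calls lost without the F15 head C84 and the F15 abdomen C88. Hex83, at 0.07 ± 0.29, did not pass (adjusted p = 0.851). Of 7 immunity genes, 5 were higher in abdomens (71.4% against 33.3% of all genes) and 1 in heads, and with the haploid libraries alone in the fit 4 were higher in abdomens. Prophenoloxidases start melanin formation in insect blood, and their 2 genes were called in opposite directions, ppo1 at -2.46 ± 0.54 (adjusted p = 0.000233) and ppo3 at 3.01 ± 0.77 (adjusted p = 0.00113). The defensin Def1-2 was at -2.47 ± 1.03 (adjusted p = 0.0358), a call lost without any of 9 of the 18 libraries. None of the 3 muscle genes was called. Tm2, a tropomyosin, was at 50.1 to 180 CPM in heads and 47.9 to 915 CPM in abdomens, where the F15 library C87 alone exceeded 71.6 CPM (log2 -0.82 ± 0.38, adjusted p = 0.0583); without C87 the difference was 0.36.

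Of 36 tested cuticle genes, 9 were higher in heads (25% against 31.6% of all genes) and 10 in abdomens (27.8% against 33.3%), shares near those of all genes. Of the yellow family, which includes pigmentation genes, Y-y was higher in heads at 2.88 to 14.4 CPM against at most 1.11 CPM in abdomens (log2 4.45 ± 0.67, adjusted p = 1.37e-06). Y-x1c lay on the other side, at 2.99 to 7.36 CPM in heads and 126 to 393 CPM in abdomens (log2 -5.42 ± 0.46, adjusted p = 3.46e-10), and 5 of 9 members were higher in abdomens (55.6% against 33.3% of all genes). Mrjpl5, of the related royal jelly protein-like genes, was at 7.25 to 31.4 CPM in heads and 54.6 to 549 CPM in abdomens (log2 -3.13 ± 0.48, adjusted p = 1.82e-06). Members of these families thus lay on both sides.

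All 3 sex determination genes differed between the tissues. Dsx (doublesex), the transcription factor at the end of the cascade, was at 75.4 to 178 CPM in heads (median 126) and 229 to 559 CPM in abdomens (median 415), without overlap (log2 -1.57 ± 0.21, adjusted p = 1.74e-07). Tra (transformer), which controls the splicing of doublesex, was higher in heads with overlap (log2 1.17 ± 0.21, adjusted p = 2.12e-05). Fru (fruitless), which in Drosophila shapes courtship circuits, was higher in heads by 0.63 ± 0.24 (adjusted p = 0.0207), by 0.97 at F5 and 0.30 at F15. Gene levels do not show which sex-specific transcript was present.

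Large abdomen differences were also found in genes without a name. Of these, chosen for their mean CPM, LOC100680151 was at most 0.722 CPM in heads and at 489 to 4389 CPM in abdomens (median 1512). LOC100117787 was at most 3.54 CPM in heads. Its abdomens were at 5714 to 7708 CPM at F5 and 313 to 1857 CPM at F15. The test of its tissue difference between generations did not pass (adjusted p = 0.463). The log2 tissue differences of LOC100680151 and LOC100117787 were -12.91 ± 1.41 and -11.86 ± 1.27 (adjusted p = 9.62e-09 and 6.73e-09). Genes at 5 CPM or more on average in 1 tissue and at 0.1 CPM or less in every library of the other numbered 49 for abdomens, of which 2 were named (CYP6AS33 and Cox6c), and 3 for heads. Among unnamed genes higher in heads, LOC100118179 was at 944 to 5316 CPM in heads and 99.5 to 365 CPM in abdomens (log2 3.82 ± 0.61, adjusted p = 3.17e-06).

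The direction of the tissue difference was largely shared by the generations. Of genes called at F5, 94.7% of those higher in heads and 96.4% of those higher in abdomens had the same sign at F15. Fewer of them, 61.2% and 67%, were also called at F15 alone. The test of the difference between generations called 19 genes (0.153%), 13 with a more positive head minus abdomen difference at F15 and 6 with a more negative one. It called 136 without C46 (1.1%), 193 with the haploid libraries alone in the fit (1.61%), and 21 with limma on log2(TPM + 0.1), of which 17 were more positive. With the haploid libraries alone, NV_30029, NV_30142 and NV_30145, genes higher in heads, were among those called. Their differences were -6.58 ± 1.13, -5.28 ± 0.87 and -5.22 ± 1.08 (adjusted p = 0.0112, 0.0098 and 0.0268). They were at 0.395 CPM or less in F5 abdomens and were not called in the main fit. In the main fit the only named gene within the rule for named genes was SP52. Its F5 abdomens were at 0.74, 2.19, 1.72, 1.33 and 1.75 CPM and its F15 abdomens at 4.03, 49.5, 13.7 and 7.9 CPM, while all heads were at 0.771 CPM or less (difference -3.85 ± 0.84, adjusted p = 0.0475). Leaving out any of 15 of the 18 haploid libraries ended that call.

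Against diploid males of the same generations, 338 genes (2.73%) had a different tissue difference, 86 more positive and 252 more negative in haploid males. Without C46, itself labelled a diploid abdomen, there were 982 (7.93%), 417 and 565 in the same order. With limma on log2(TPM + 1) there were 903, of which 14 were more positive; that fit changed both the tool and the measure. With RLE scaling of the counts there were 331, of which 82 were more positive. DLC-A was at 319 to 1551 CPM in haploid abdomens (median 1083) and 174 to 1151 CPM in diploid male abdomens other than C46 (median 253), with heads at 331 to 580 and 411 to 723 CPM. Its difference was -1.50 ± 0.35 (adjusted p = 0.0179), and -1.52 ± 0.36 without C46 (adjusted p = 0.0104). GstT1 was at 18.8 to 44.6 CPM in haploid abdomens and 36.5 to 174 CPM in those diploid abdomens, with a difference of 1.68 ± 0.47 (adjusted p = 0.0452). GstT1, Acads, CPR35, Na-pi-t and APOOL each lost the call when any of 9 to 23 single libraries was left out of 36, and DLC-A lost it without 1, the F15 haploid abdomen C86. Cox7a1 was called only without C46 (-3.48 ± 0.96, adjusted p = 0.0241; with C46 0.0543). It was at 8.19 to 62 CPM in haploid abdomens and 0 to 17.7 CPM in diploid male abdomens other than C46 (median 1.13). Cox6c was at 0.866 to 16.2 and 0 to 2.55 CPM in the same abdomens. With no count in any male head of either ploidy, its head minus abdomen differences could not be compared by this test. At F5 alone edgeR called 0 genes (1230 at an unadjusted p below 0.05) and 1 without C46, DESeq2 called 65, and at F15 alone edgeR called 305, or 879 without C46 (289 more positive and 590 more negative).

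Against diploid females the tissue difference was not the same for most genes: 10004 of 12625 (79.2%) differed, 4602 more positive and 5402 more negative in males. Sex, ploidy and generation cannot be told apart in this comparison. The genes over 4-fold higher in heads were largely held in common, since 812 of the 909 of haploid males (89.3%, and 30.2% of the 2690 of females) were also in the female list. For abdomens the share was 296 of 1233 (24%, and 15.8% of the female 1870), and 109 of the male abdomen genes were over 4-fold higher in female heads. The female lists held 2690 (heads) and 1870 (abdomens) of the 12625 genes tested, and lists of that size share some genes by size alone. With diploid males without C46 the shared part was 798 of 845 for heads (94.4%) and 901 of 1181 for abdomens (76.3%). The diploid male lists held 1131 and 1251 of the 12385 genes tested.

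**Figure D5:**
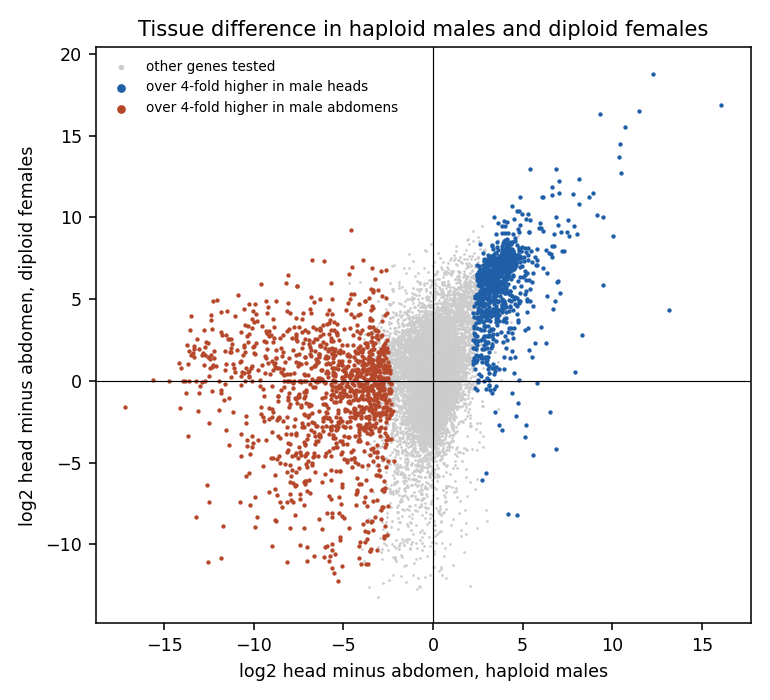
Log2 head minus abdomen difference of each gene in haploid males (horizontal) and diploid females (vertical); coloured points are the 909 genes over 4-fold higher in male heads (blue) and the 1233 over 4-fold higher in male abdomens (red). Most blue points are above 0 in females too, and red points spread on both sides of 0.

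Several male abdomen genes were absent or low in female abdomens. On the scale of the fit with females, CYP4AB21 was at 83.7 to 369 CPM in male abdomens and 0.444 to 1.39 CPM in female abdomens, with heads of both sexes at 3.9 CPM or less (difference -8.00 ± 0.40, adjusted p = 4.63e-17). SP19 was at 135 to 358 CPM in male abdomens and at most 0.882 CPM in female abdomens (difference -7.47 ± 0.33, adjusted p = 5.5e-18). Or255 was at 0.471 to 8.6 CPM in male abdomens and at most 0.0404 CPM in female abdomens (difference -11.46 ± 1.10, adjusted p = 1.85e-09). None of the 3 overlapped between male and female abdomens, and Cox6c was at 0 in all female abdomens.

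In the other direction stood genes of the female abdomen. Cyclin B, higher in male abdomens than in heads, was at 2.53 to 23.2 CPM in male abdomens and 578 to 1466 CPM in female abdomens (cycB difference 6.28 ± 0.68, adjusted p = 1.34e-09). The germ line gene nanos was at 55.8 to 122 CPM in female abdomens and at most 0.0579 CPM in male abdomens, and Hb (hunchback), an embryonic patterning gene, at 113 to 255 CPM against 0.0574 to 9.38 CPM. SP37 and SPH90 were at 308 to 398 and 27.8 to 45.7 CPM in female abdomens, against at most 60.2 and 0.21 CPM in male abdomens. All 14 cell cycle genes had a more positive tissue difference in males than in females, as did 36.5% of all genes, with a median of 3.52 against -0.39 over all genes. Dsx was at 249 to 605 CPM in male abdomens and 83.7 to 193 CPM in male heads, without overlap. In females it was at 53.3 to 282 CPM in abdomens and 199 to 255 CPM in heads, with overlap. Its tissue difference was more negative in males (difference -2.60 ± 0.26, adjusted p = 1.96e-10).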

How the data were processed

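The submitters' processing notes name STAR 2.7.11a and RSEM 1.3.1 for poly-A RNA libraries. The genome build they used was not given in the sources used here. The authors deposited expected counts for 14621 genes and TPM for 14613 genes. RSEM divides reads among similar sequences. Expected counts were rounded (18.2% were not whole) and tested with edgeR 4.0.16 in R 4.3.3 (TMM, filterByExpr, quasi-likelihood F test, and glmTreat against a log2 change of 2), with Benjamini-Hochberg adjusted p below 0.05. Every adjusted p beside a gene is from edgeR. Each SE beside a log2 difference was calculated back from the test, as the absolute difference divided by the square root of F. It is approximate, most of all where a tissue has almost no counts. In the male fit it reflects the spread of all 36 male libraries, C46 included. Without C46 the SE of head minus abdomen fell from 1.77 to 0.82 for Lop1, from 0.79 to 0.52 for TctexA and from 1.31 to 1.17 for Cox6c. The fit of 36 male libraries (8 groups) gave the mean over F5 and F15 of head minus abdomen; a fit of 34 libraries served the comparison with females. DESeq2 1.42.0, limma 3.58.1 on log2(TPM + 1) or log2(TPM + 0.1), RLE scaling, no filter and single libraries left out were alternatives, and leaving out C46 was added after the data were seen. CPM is scaled to effective library size. Named genes were up to 12 a direction passing the 4-fold test without overlap at 5 CPM or more, up to 4 per list, tissue markers, the largest differences between groups, and up to 5 abundant LOC genes. White, Cyc1l, Gr45, Gr46, SP7 and SP9 were named after their values were seen, and members and lists were chosen with earlier results of these data known. The reference table (assembly Nvit_psr_1.1) held all 14621 symbols and gave gene order. The edgeR script was tested on simulated data. No libraries of a group were copies (lowest chi-square per gene between 2 haploid libraries of a group 29.4).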

Additional observations from a re-analysis of the deposited data

Results flagged for a closer look

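Single libraries stood apart from the other 8 of their tissue in 23 of 155 sets of 9 levels checked. The cut-off used is passed about 1 time in 20 by independent, normally distributed levels. These were CPM without a log, pooled over F5 and F15, and many sets share a library, so that rate need not hold. The count is therefore a description and not a test. In the F15 head C82 the levels of abdomen genes were above all other heads: Cad was at 1.04 CPM, SP102 at 3.61, SP132 at 1.6, SP50 at 1.94, GstD1 at 852, Y-x1b at 2.99, ppo1 at 7.36, LOC100117787 at 3.54 and LOC100118781 at 68.8 CPM. Another F15 head, C83, held the highest CCE-A4, at 1.13 CPM. Head genes stood out in abdomens as well: CPR48 was at 3.9 CPM in C58, CYP9AG7 at 2.04 and Dop2 at 1.91 CPM in C88, Syt1 at 170 CPM in C59, Gnao at 34.9 CPM in C87 and Gr3 at 2.33 CPM in C60. All of these levels in abdomens lay below the lowest head except that of Gr3. Among genes in the tissue where they were higher, Dop2 was at 28.3 CPM in the head C54, Or243 at 30.8 CPM in the head C84, CYP6AS33 at 19.2 and serpin5 at 1205 CPM in the abdomen C89, and cycD at 5.4 CPM in the abdomen C88. Tm2 was at 180 CPM in the head C81 and 915 CPM in the abdomen C87. What set these libraries apart was not tested.

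The head minus abdomen difference itself differed between groups for several named genes. Between generations this held for SP52 (-3.85) in the main fit. Between haploid and diploid males it held for GstT1 (1.68), Acads (1.21), CPR35 (1.18), Na-pi-t (1.26), APOOL (-1.38) and DLC-A (-1.50), all on the log2 scale. Between haploid males and diploid females it held for nanos (12.21), SP37 (10.10), SPH90 (9.50), CYP6CK11 (8.62), Hb (8.46), CYP4AB21 (-8.00), SP19 (-7.47), SP52 (-7.14), GstD5 (-6.94), Def1-1 (-6.98), Or255 (-11.46) and Dsx (-2.60). The value of nanos rests on almost no counts in males, and its call was lost without the F5 head C52.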

How the results depend on the processing

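No paired analysis was possible because the library codes do not tie heads to abdomens. Leaving out 1 haploid library gave 3779 to 3972 genes higher in heads, 3959 to 4199 higher in abdomens, and 672 to 763 and 1069 to 1144 over 4-fold. F15 alone gave 2555 genes higher in heads and 359 over 4-fold; DESeq2 gave 443 over 4-fold in heads, and limma on log2(TPM + 1) gave 447 in heads and 569 in abdomens. The median log2 of all genes moved from -0.04 to between -0.12 and 0.14 under other scalings. The generation count was 6 (without F15 abdomen C87) to 37 (without F5 head C53), also 8 without head C51, 9 without head C82, 11 without head C55B and 12 without head C54 or abdomens C86, C60 or C58; it was 189 with DESeq2, 49 with limma on log2(TPM + 1), 193 with haploid libraries alone and 136 without C46. The ploidy count was 154 (without F15 haploid abdomen C86) to 982 (without C46), with 630 without haploid abdomen C89, 593 and 516 without diploid abdomens C48 and C50, and 179 to 212 without C87, C83, C56, C58, C99, C96, C49 or C92; it was 819 with DESeq2, 903 and 786 with limma on log2(TPM + 1) and log2(TPM + 0.1), and 0 at F5 alone. The comparison with females gave 9876 to 10151. Hex83 changed sign under RLE and DESeq2 (-0.02 in both), at F5 alone (-0.06) and without single libraries (-0.08 to 0.24). Tm1 was 0.19 at F15 alone, and Tm2 ran from -1.13 to 0.36 without single libraries. For 105 gene values the side of the threshold and the sign held in 855 of 905 other settings and 2054 of 2190 fits without a library. Where not stated, the cause was not tested.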
